A study of Mus musculus with 15 samples.

Results

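RNAseq profiles of invariant NKT (iNKT) cells from mesenteric lymph node (mLN) were compared with those of iNKT cells from thymus. The comparison took the samples whose tissue label was mLN or thymus, which are 8 of the 15 samples analysed, 4 from each tissue. All came from WT C57BL/6 mice aged 6 weeks. iNKT cells were sorted by TCRβ and by binding to a CD1d tetramer loaded with PBS57, and cells with B220, CD11b, CD11c or CD8 were left out. Spleen and inguinal lymph node (iLN) samples of the same study entered the model for the spread between samples, and are quoted only for context. Replicates 1 and 2 of each tissue were in the batch labelled Second and replicates 3 and 4 in the batch labelled First. The labels call the samples biological replicates and number them WT1 to WT4, and do not say whether a number stands for 1 mouse or for a pool. LNs were digested with collagenase, DNAse and NADase before straining whereas thymus and spleen were only strained, so tissue and preparation cannot be told apart between mLN and thymus.

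iNKT cells are T cells with a semi-invariant TCR that recognises lipids presented by CD1d. They mature in the thymus into the subsets NKT1, which depends on T-bet, NKT2, with high PLZF, and NKT17, which can secrete IL-17, and some mature cells remain in the thymus while others leave for the periphery. NKT1 cells carry many receptors that were first described on NK cells, respond to IL-12 and IL-18, and secrete IFNγ. Circulation through LNs requires receptors of entry such as CCR7, and egress along sphingosine 1-phosphate requires S1PR1.

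The total expected count per sample was between 4740370 and 7914302 in mLN and between 1152702 and 8161474 in thymus, where replicate 2 was the lowest. Levels are given below as CPM (counts scaled to a common library size) after TMM normalization, listed by sample in the order of replicates 1 to 4, and fold changes are on the log2 scale of edgeR, mLN minus thymus. Pearson's r of log2(CPM + 1) across genes was between 0.861 and 0.945 for pairs of mLN samples, between 0.904 and 0.969 for pairs of thymus samples, and between 0.846 and 0.929 for an mLN sample with a thymus sample. Genes that overlap rRNA repeats took 28.9% and 24.9% of the counts in thymus replicates 3 and 4, and between 3.69% and 14.6% in the other 6 samples. Both tissues held the markers of the sorted cells. The 15 genes of iNKT identity summed to between 4502 and 4887 CPM in mLN and between 4205 and 4646 CPM in thymus, and of 14 tested 1 was higher and 1 lower in mLN (median log2 fold change 0.31), the receptor genes Slamf6 and Klrb1c described below. Trav11, the Vα14 segment of the invariant TCR, was at 198, 208, 226 and 195 CPM in mLN and at 259, 239, 209 and 335 CPM in thymus, and Zbtb16, which encodes PLZF, was detected in all 8 samples. Trav11 is a near-identical copy of Trav11d, and RSEM may divide reads between them.

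Of 13600 genes tested, 217 (1.6%) differed between mLN and thymus by more than 1.5-fold with an adjusted p under 0.01 in edgeR, and DESeq2 called 414 (3.04%) by the same rule. In mLN 111 were higher (0.816%) and 106 were lower (0.779%). These are termed called below. The 4 mLN samples did not overlap the 4 thymus samples in 206 of the 217 called genes, against 1095 of all genes tested (8.05%). All 217 had the same direction within the batch labelled First and within the batch labelled Second. The calls were made on these same samples, so neither the lack of overlap nor the shared direction is an independent check. Over 4-fold differences were found in 51 of the genes higher and 52 of the genes lower in mLN, and the median log2 fold change of all genes tested was 0.03. Leaving out thymus replicate 3 moved the number of called genes most, to 125. The number was 134, 141 and 136 without thymus replicates 1, 2 and 4, and 144 without mLN replicate 3. In bulk samples, a different share of a cell subset and a different level of RNA per cell cannot be told apart.

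**Figure D1:**
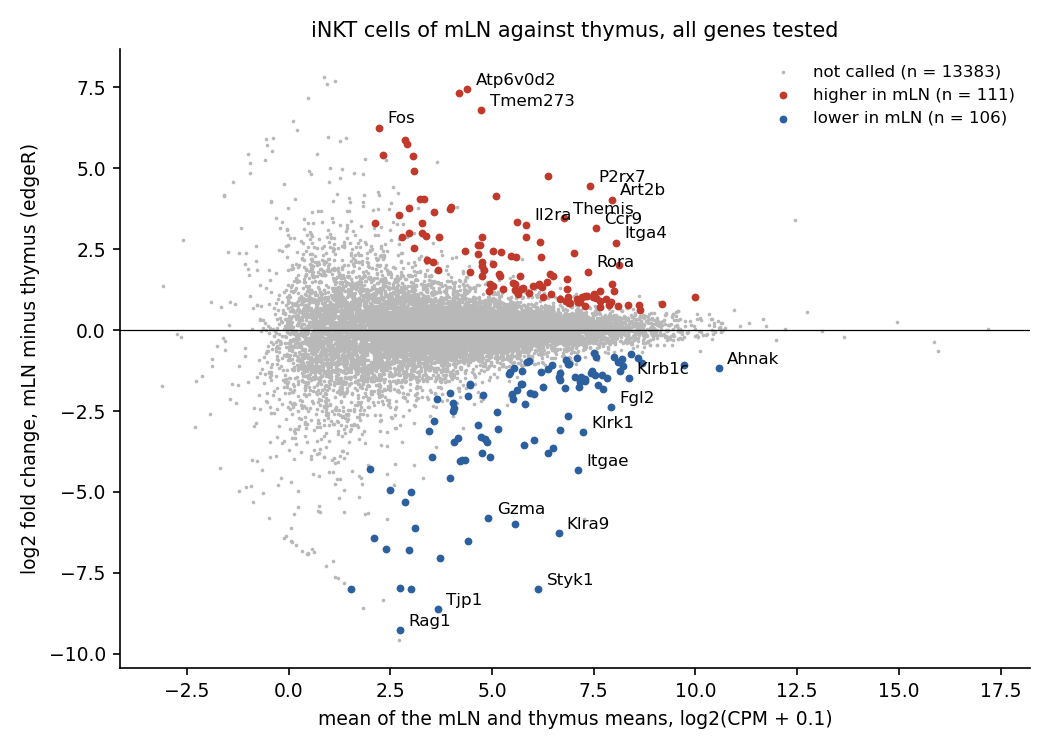
Each point is 1 of the genes tested, with the mean level of both tissues on the x axis as log2(CPM + 0.1) and the edgeR log2 fold change of mLN minus thymus on the y axis. Called genes (111 higher in mLN in red, 106 lower in blue) reach 7.45 (Atp6v0d2) in one direction and −9.26 (Rag1, with 0 counts in mLN, where the fitted value is no bound) in the other, and those lower include Tjp1, Styk1 and Klra9.

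Genes were read in 32 lists by function, and 75 of the 217 called genes were on at least 1 of them. Lists share members, so their counts do not add up. Genes on the list of NK cell receptors were lower in mLN in the largest number, 15, and none was higher. Members of the lists for egress and homing, chemokine receptors, AP-1, costimulation, lineage factors and purinergic signalling were called higher and none of them lower. DESeq2 called 2 chemokine receptors and 1 lineage factor lower.

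**Figure D2:**
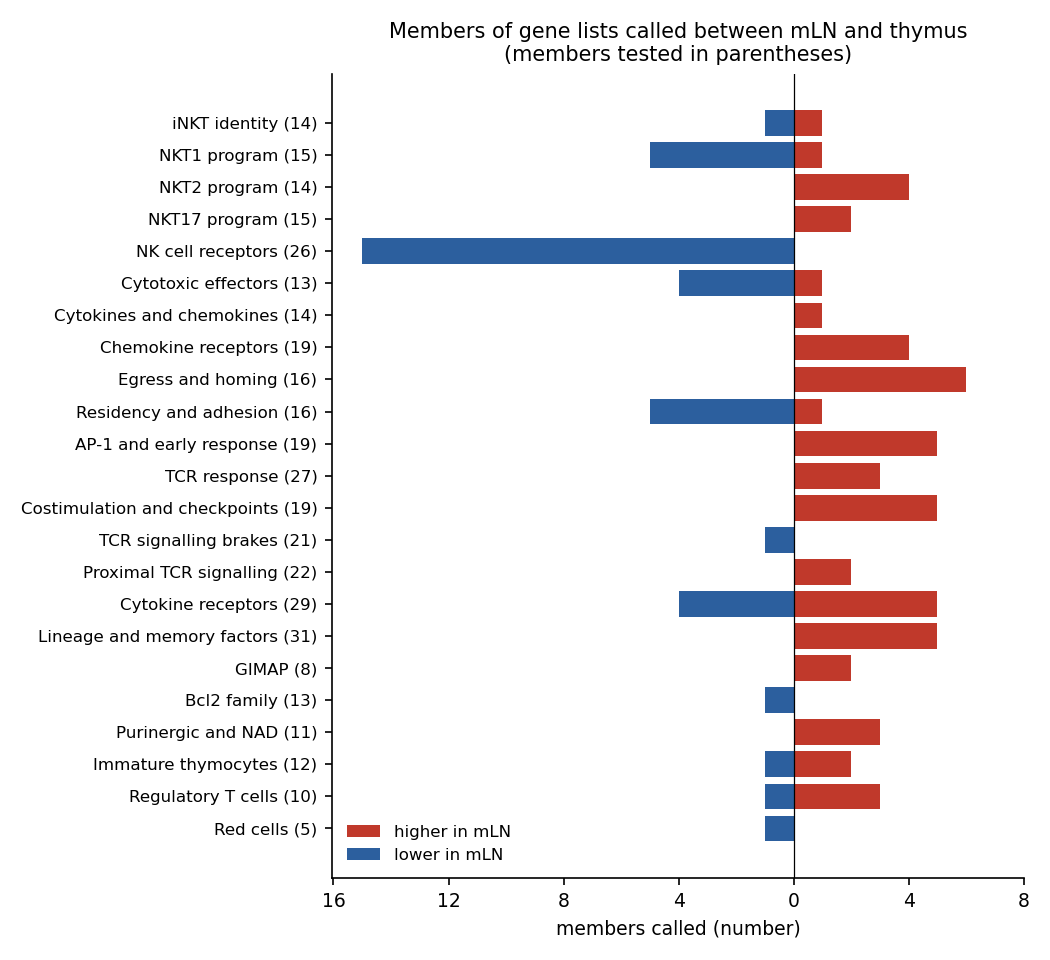
Bars give the number of members called higher in mLN (red, to the right) and lower in mLN (blue, to the left) for the 23 lists with at least 1 called member, with the number tested in parentheses. NK cell receptors have 15 members called lower of 26 tested, and egress and homing has 6 called higher of 16.

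Of 26 NK cell receptor genes tested, 15 were lower in mLN. Many of them encode C-type lectin receptors that bind MHC class I or stress ligands and set the threshold of cytotoxic cells. The list also holds SLAM family receptors and a signalling adaptor. The list had 30 members, and 25 of those tested had a negative log2 fold change, with a median of −3.50. Klrk1 (ENSMUSG00000030149, chromosome 6 from 129610323 to 129623864 on the minus strand of GRCm38), which encodes the activating receptor NKG2D, was at 25.4, 32.8, 28.5 and 36.4 CPM in mLN and at 269.9, 293, 263 and 266 CPM in thymus. All mLN samples lay far below all thymus samples (log2 fold change −3.15, SE 0.20, edgeR adjusted p = 2.45e-08). Klrd1, which encodes CD94, the partner chain of the NKG2 receptors, was at 10.5, 13.5, 2.91 and 9.63 CPM in mLN and 123, 99.2, 85.9 and 98.7 CPM in thymus (−3.53, SE 0.37, edgeR adjusted p = 9.25e-06). Klrb1c, which encodes NK1.1, was lower but well expressed in mLN, at 174, 184, 140.0 and 193 CPM against 421, 484, 514 and 508 CPM in thymus (−1.48, SE 0.16, edgeR adjusted p = 1.23e-05).

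Klrc1 and Klrc2, which encode the inhibitory NKG2A and the activating NKG2C, had log2 fold changes of −2.51 and −3.10 (edgeR adjusted p = 0.000298 and 2.26e-05). Klrc2 varied within mLN from 51.9 CPM in replicate 1 to 6.03 CPM in replicate 3, and did not overlap thymus. Fcer1g, the signalling adaptor FcRγ, was at 3.82 ± 0.741 CPM in mLN (SD, n = 4) and 57.8 ± 14.3 CPM in thymus (−3.90, SE 0.43, edgeR adjusted p = 1.95e-05). The SLAM family receptors Cd244a (2B4) and Slamf7 (CRACC) changed by −4.93 and −1.38 (edgeR adjusted p = 0.00719 and 0.00475). Klrg1, a receptor of late effector cells, was the 1 tested member with a positive value and was not called (1.48, edgeR adjusted p = 0.535).

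Among the Ly49 receptors, which bind MHC class I, Klra9 was at 5.83, 0.145, 3.95 and 0.385 CPM in mLN and at 229, 156, 189.5 and 209 CPM in thymus (−6.27, SE 0.74, edgeR adjusted p = 6.45e-05). Klra5, Klra3 and Klra1 had log2 fold changes of −7.03, −3.92 and −3.46. Klra6 had 1 count over the 4 mLN samples against 362 over the 4 thymus samples, a ratio of 485-fold (95% counting interval 86.5 to 19207) after scaling by depth. The pseudogene Klra13-ps had 1 count against 269, a ratio of 360.4-fold (95% counting interval 64.1 to 14286). These intervals cover counting error only. Klra7, Klra8 and Klra10 had edgeR adjusted p-values of 0.0349, 0.101 and 0.0221 and were not called. Ly49 genes are close copies of each other, and RSEM divides reads that match several of them, so the value of a single member is uncertain. Klre1 and Klri2, which encode the lectin receptors KLRE1 and KLRI2, were also lower (−3.81 and −4.01). Without 1 sample at a time, Klrk1, Klrd1, Klrb1c, Klrc1, Klrc2, Fcer1g, Klra1, Klra5, Klra6, Klra9 and Klra13-ps kept the call. Cd244a lost it without any 1 of the 8 samples (edgeR adjusted p up to 0.0707), Klra3 without any 1 sample but mLN replicate 2 (up to 0.0419) and Slamf7 without any 1 sample but mLN replicate 1 (up to 0.0215). Klre1 lost it without thymus replicate 1 (0.0127) and Klri2 without mLN replicate 3 or 4 (up to 0.0123).

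Of the 15 called NK receptor genes, 12 lie on chromosome 6 of GRCm38 between 128778485 and 130386874, a stretch of 1.61 Mb known as the NK gene complex. The bounds are those of the called receptors and were set after their values were seen. It holds 30 tested genes, of which 13 were lower in mLN, the 13th being Klra13-ps, and none was higher, with a median log2 fold change of −3.12. The 16 genes from Klre1 to Klra1 had log2 fold changes between −8.00 and −2.51. Nearer Klrb1c, Cd69, an early activation marker, was at 29.6, 40.2, 24.1 and 34.5 CPM in mLN and 24.4, 32.3, 25.6 and 28.8 CPM in thymus and was not called (0.20, edgeR adjusted p = 0.858).

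**Figure D3:**
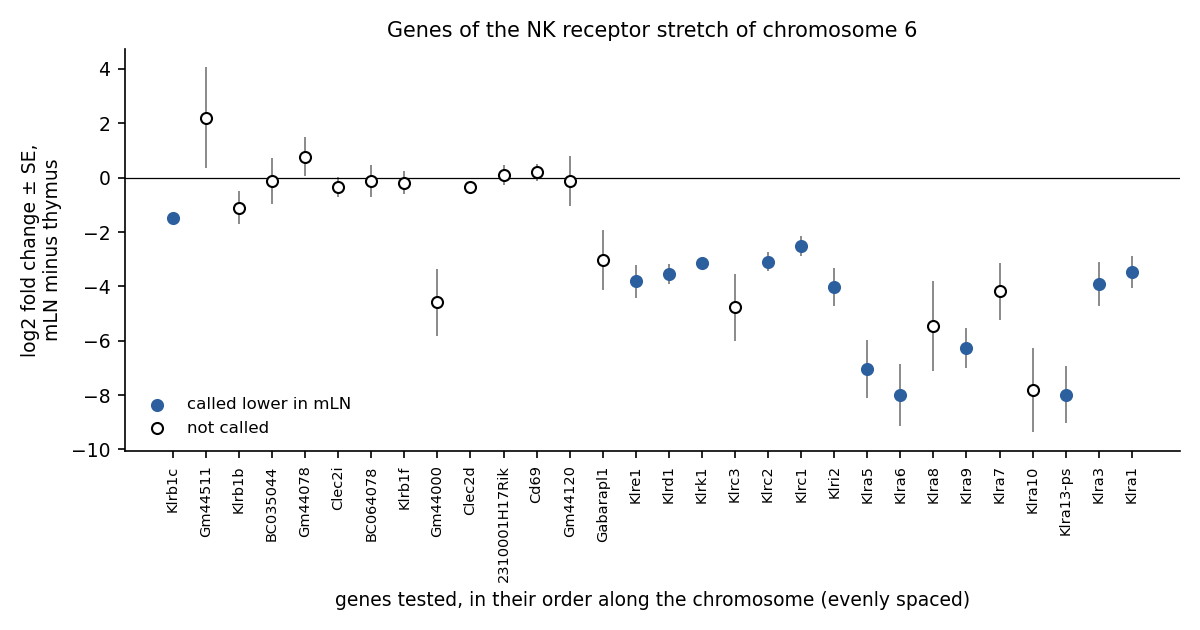
The 30 tested genes of the NK receptor stretch of chromosome 6 are shown in their order, evenly spaced, with the log2 fold change of mLN minus thymus and its SE. Filled points are called (13 genes) and open points are not, and the values from Klre1 to Klra1 lie between −8.00 and −2.51 while none of those from Gm44511 to Gabarapl1 is called.

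Promoters were searched for short motifs, since 12 of the called NK receptor genes lie in 1 stretch. RefSeq promoter sequences (GRCm38.p6, the 250 bases before the start) matched 83 of the genes lower and 84 of the genes higher in mLN by symbol, and 9126 of all genes tested. The Runx motif, TGTGGTT on either strand, was in 3 of 13 promoters of called NK receptors (23.1%), those of Klra1, Klre1 and Klrk1. It was in 9.64% of the promoters of genes lower in mLN, in 3.57% of those of genes higher in mLN and in 3.36% of all. The AP-1 motif, TGANTCA, and the E-box motif, CACGTG, were each in 2 of the 13 NK receptor promoters (15.4%). They were in 3.98% and 8.53% of all. The other motifs searched, CRE, SRE, NBRE, Egr, TCF, T-box and KLF, were in none of the 13. The promoters of Klrk1 and Klra1, from the activating and the Ly49 receptors, are given 5′ to 3′ with the Runx match in capitals. The matches begin 129 and 201 bases before the start. A match is a description of the letters and no measure of binding.
Klrk1, chr6:129623865-129624114, minus strand: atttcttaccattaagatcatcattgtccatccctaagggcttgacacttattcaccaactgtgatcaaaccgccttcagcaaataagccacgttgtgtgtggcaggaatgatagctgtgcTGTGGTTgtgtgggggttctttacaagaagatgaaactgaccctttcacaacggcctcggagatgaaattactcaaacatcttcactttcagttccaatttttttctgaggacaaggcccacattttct
Klra1, chr6:130386875-130387124, minus strand: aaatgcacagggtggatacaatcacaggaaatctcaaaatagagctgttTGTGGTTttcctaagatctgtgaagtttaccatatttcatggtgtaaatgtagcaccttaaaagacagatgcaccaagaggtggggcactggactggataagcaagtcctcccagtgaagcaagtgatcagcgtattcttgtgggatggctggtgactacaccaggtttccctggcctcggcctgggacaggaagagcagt

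Genes of granule cytotoxicity were lower in mLN in part. Of 13 tested members of the list 4 were lower and 1 was higher, with a median log2 fold change of −1.04. DESeq2 called 7 lower and 1 higher, and without a filter on low counts 8 and 1 were called. Gzma (ENSMUSG00000023132, chromosome 13 from 113093825 to 113100981 on the minus strand), which encodes the serine protease granzyme A, was at 0, 1.31, 2.91 and 0.193 CPM in mLN and at 45.2, 69.1, 60.6 and 60.9 CPM in thymus, and no mLN sample reached the lowest thymus sample (−5.79, SE 0.71, edgeR adjusted p = 5.3e-05). Gzmb (granzyme B) missed the threshold in edgeR, whereas DESeq2 called it lower (DESeq2 adjusted p = 2.77e-06). It was at 16.5, 0.58, 0.416 and 3.08 CPM in mLN and at 390.1, 276, 259 and 278 CPM in thymus, with the highest value of each tissue in replicate 1, and groups that did not overlap (−5.84, SE 1.06, edgeR adjusted p = 0.0113). Fgl2, a secreted prothrombinase and immune regulator, was at 83.2, 76.6, 49.1 and 103 CPM in mLN and 393, 464, 367 and 409 CPM in thymus (−2.39, SE 0.23, edgeR adjusted p = 3.19e-06).

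Nkg7, a protein of granule exocytosis, was at 118 ± 26.2 CPM in mLN and 332 ± 27.5 CPM in thymus (SD, n = 4), a log2 fold change of −1.49 (edgeR adjusted p = 0.00169). Ctsw, the granule protease cathepsin W, changed by −1.04 (edgeR adjusted p = 0.00919) and its groups overlapped. Lamp1, a protein of lysosome and granule membranes, was higher (1.01, edgeR adjusted p = 0.00237). Prf1, which encodes perforin, was at 0.13, 2.47, 8.53 and 10.02 CPM in mLN and 9.63, 11, 34.4 and 32.4 CPM in thymus and was not called (−2.19, edgeR adjusted p = 0.186). In both tissues it was higher in replicates 3 and 4, those of the batch labelled First, and the groups overlapped. Without 1 sample at a time Gzma, Fgl2 and Nkg7 kept the call. Ctsw lost it without any 1 of the 8 samples (edgeR adjusted p up to 0.0452), and Lamp1 without mLN replicate 2 or 4 or thymus replicate 2, 3 or 4 (up to 0.0149).

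The promoter of Gzma holds the Runx motif as its reverse complement, AACCACA, beginning 51 bases before the start. The T-box motif, AGGTGTGA on either strand, which T-bet and Eomes can bind, was in 2 of 83 promoters of genes lower in mLN (2.41%). It was in none of 84 promoters of genes higher in mLN, and in 0.701% of all. None of the 13 promoters of called NK receptors held the T-box motif. In the promoter of Nkg7 it begins 14 bases before the start. Both promoters are given as above, with the match in capitals.
Gzma, chr13:113100982-113101231, minus strand: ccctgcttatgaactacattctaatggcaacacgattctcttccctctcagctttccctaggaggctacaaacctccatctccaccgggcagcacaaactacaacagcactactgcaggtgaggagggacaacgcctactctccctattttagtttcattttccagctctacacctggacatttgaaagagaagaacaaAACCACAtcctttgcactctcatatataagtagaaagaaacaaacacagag
Nkg7, chr7:43436888-43437137, plus strand: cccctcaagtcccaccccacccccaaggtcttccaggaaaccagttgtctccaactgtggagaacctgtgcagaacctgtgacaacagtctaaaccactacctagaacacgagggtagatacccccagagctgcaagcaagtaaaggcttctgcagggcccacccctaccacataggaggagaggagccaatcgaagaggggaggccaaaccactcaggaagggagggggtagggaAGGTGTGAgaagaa

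Il12rb2 and both chains of the IL-18 receptor were lower in mLN, and Il2ra, both chains of the IL-6 receptor and Il17rb were higher. Of 29 cytokine receptor genes tested 5 were higher and 4 were lower, with a median of 0.33. Il12rb2, the inducible chain of the IL-12 receptor, was at 104, 58.8, 42.2 and 56.1 CPM in mLN and 221, 246, 186 and 211 CPM in thymus, with no overlap (−1.75, SE 0.20, edgeR adjusted p = 2.03e-05). Exons of Serbp1 on the opposite strand cover 40.0% of its exonic bases, and reads there cannot be told apart without strand. Il18rap and Il18r1, the 2 chains of the IL-18 receptor, had log2 fold changes of −1.50 and −0.83 (edgeR adjusted p = 3.64e-05 and 0.00749), and Il18r1 overlapped between the tissues.

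Both chains of the IFNγ receptor differed, in opposite directions. Ifngr1, the ligand-binding chain, was at 78.6, 52.1, 62.8 and 90.7 CPM in mLN and 159, 228, 229 and 250.1 CPM in thymus (−1.60, SE 0.22, edgeR adjusted p = 0.0002). Ifngr2, the signalling chain, was at 28.7, 16.4, 15.6 and 8.09 CPM in mLN and 2.22, 2.94, 1.38 and 1.9 CPM in thymus (3.0, SE 0.55, edgeR adjusted p = 0.00294). Il2ra, which encodes CD25, the chain that gives the IL-2 receptor high affinity, was at 109.6, 116, 86.1 and 101 CPM in mLN and 14.9, 5.15, 8.26 and 11.6 CPM in thymus (3.26, SE 0.26, edgeR adjusted p = 2.58e-07), and the groups did not overlap. Il6ra and Il6st, the 2 chains of the IL-6 receptor, were higher by 1.66 and 1.32 (edgeR adjusted p = 0.00607 and 0.00128). Il17rb, the receptor of IL-25 and a marker of NKT2 cells, was higher by 1.31 (edgeR adjusted p = 0.007). Il2rb, the shared chain of the IL-2 and IL-15 receptors, was at 854 ± 127 CPM in mLN and 1363 ± 344 CPM in thymus and was not called (−0.65, edgeR adjusted p = 0.0558). Il12rb2, Il18rap, Ifngr1, Il2ra and Il6st kept the call without any 1 sample. Il6ra lost it without mLN replicate 2 or 3 or any thymus replicate (edgeR adjusted p up to 0.0454), Ifngr2 without mLN replicate 1 or 3 or any thymus replicate (up to 0.0178), Il17rb without mLN replicate 1 or 3 or any thymus replicate (up to 0.0359), and Il18r1 without mLN replicate 2, 3 or 4 or thymus replicate 1, 3 or 4 (up to 0.0527).

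Of the secreted factors, 1 of 14 tested was called. Ccl5, a chemokine stored by effector lymphocytes, was higher in mLN, at 55.8, 47.4, 44.1 and 70.9 CPM against 22.2, 16.9, 22.3 and 29 CPM in thymus (1.28, SE 0.25, edgeR adjusted p = 0.00547), and lost the call without mLN replicate 1, 2 or 4 or thymus replicate 2, 3 or 4 (edgeR adjusted p up to 0.0322). Ifng was at 34.2, 8.42, 8.74 and 8.86 CPM in mLN, highest in replicate 1, and at 6.66, 11.8, 7.16 and 6.07 CPM in thymus (0.87, edgeR adjusted p = 0.429). Xcl1, a chemokine for cross-presenting dendritic cells, and Csf1, the macrophage growth factor, had log2 fold changes of −1.02 and −4.15 (edgeR adjusted p = 0.0165 and 0.032), neither of them called. DESeq2 called both lower (DESeq2 adjusted p = 0.00126 and 6.93e-05). The median of the list was 0.08.

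On the list of residency and adhesion, 5 of 16 tested genes were lower in mLN and 1, P2rx7, was higher, with a median of −0.75. Cdh1, which encodes E-cadherin, was at 0, 0.435, 2.29 and 4.24 CPM in mLN and at 80.0, 82.3, 100.3 and 106 CPM in thymus (−5.99, SE 0.69, edgeR adjusted p = 2.57e-05). Itgae (ENSMUSG00000005947, chromosome 11 from 73090583 to 73147446 on the plus strand) encodes CD103, the integrin chain that binds E-cadherin, and was at 4.93, 10.9, 31.6 and 8.48 CPM in mLN and 219, 302, 286 and 241 CPM in thymus, where no sample overlapped (−4.32, SE 0.45, edgeR adjusted p = 9.05e-06). In spleen Itgae was at 4.44 ± 2.77 CPM (SD, n = 4) and in iLN at 200.1 ± 32.8 CPM (SD, n = 3). Tjp1, the tight junction protein ZO-1, had 1 count over the 4 mLN samples against 420 over the thymus samples, a ratio of 563-fold (95% counting interval 100.4 to 22276) after scaling by depth. Itga1, the collagen-binding integrin chain CD49a, was at 26.9 ± 10.1 CPM in mLN and 105 ± 24.5 CPM in thymus (−1.98, edgeR adjusted p = 7.32e-05). Zfp683, the residency factor Hobit, was at 57.7, 54.3, 90.7 and 81.1 CPM in mLN and 148, 174, 193 and 249 CPM in thymus (−1.44, SE 0.21, edgeR adjusted p = 0.000328). The 5 lower genes Cdh1, Itgae, Tjp1, Itga1 and Zfp683 kept the call without any 1 sample.

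**Figure D4:**
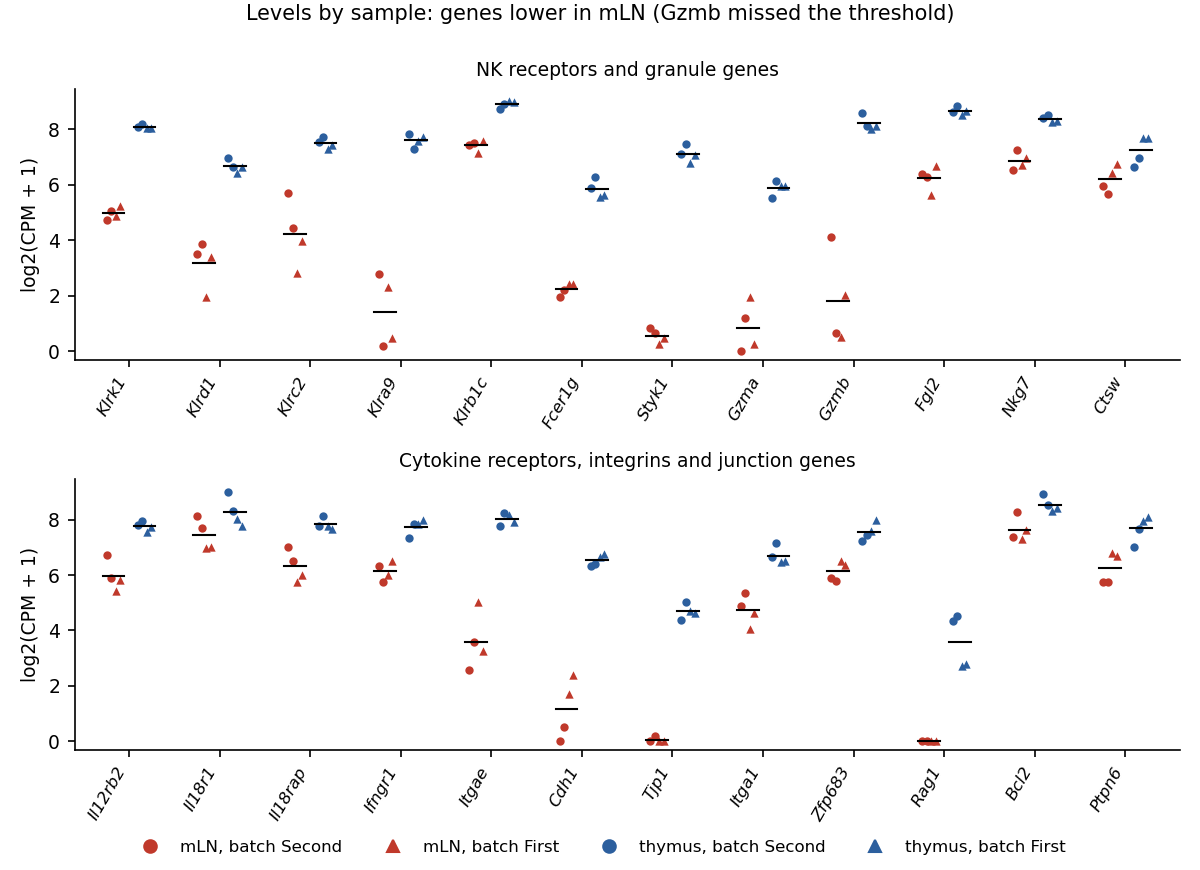
Points are single samples as log2(CPM + 1), mLN in red and thymus in blue, circles for the batch labelled Second and triangles for First, with lines at the mean of the 4 log2 values. Each gene sits lower in mLN, with Tjp1 and Rag1 at or near 0 there, while Ctsw and Il18r1 overlap between the tissues and Gzmb was not called.

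Of 16 tested genes of LN entry and egress, receptors and transcription factors, 6 were higher in mLN and none was lower, with a median of 0.17. Ccr7, the receptor for the LN chemokines CCL19 and CCL21, was at 20.0, 48.6, 56.6 and 55.3 CPM in mLN and 13.7, 2.94, 5.51 and 5.69 CPM in thymus (2.64, SE 0.47, edgeR adjusted p = 0.00237), with mLN replicate 1 the lowest and thymus replicate 1 the highest. Itga4, the α4 chain of integrins for gut and inflamed vessels, was at 653, 445, 407 and 327 CPM in mLN and 88.5, 108, 43 and 54.1 CPM in thymus (2.71, SE 0.22, edgeR adjusted p = 3.73e-07), and no sample overlapped. S1pr1, the egress receptor, was at 42.8 ± 13.3 CPM in mLN and 17.9 ± 4.42 CPM in thymus (1.21, edgeR adjusted p = 0.0042).

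The transcription factor genes Foxo1 and Klf3 were higher by 0.99 and 0.87 (edgeR adjusted p = 0.000462 and 0.00989). Klf2, which drives S1pr1 in T cells, was at 8.82, 9.58, 3.12 and 9.05 CPM in mLN and 15.4, 7.35, 7.99 and 16.1 CPM in thymus and was not called (−0.64, edgeR adjusted p = 0.689). Itga4 and Foxo1 kept the call without any 1 sample. Klf3 lost it without any 1 of the 8 samples (edgeR adjusted p up to 0.0558), S1pr1 without mLN replicate 2 or 3 or thymus replicate 2, 3 or 4 (up to 0.0284), and Ccr7 without mLN replicate 3 or thymus replicate 3 or 4 (up to 0.0168).

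Of 19 chemokine receptors tested 4 were higher in mLN and none was lower, with a median of 0.47. DESeq2 called 5 higher and 2 lower, and without a filter on low counts 6 and 2 were called. Ccr9 (ENSMUSG00000029530, chromosome 9 from 123678439 to 123784330 on the plus strand), which guides lymphocytes to the small intestine, was at 409.9, 434, 282 and 218 CPM in mLN and at 65, 60.3, 22.6 and 16.9 CPM in thymus (3.15, SE 0.22, edgeR adjusted p = 4.94e-08). Values of replicates 3 and 4 were lower than those of replicates 1 and 2 in both tissues, and the tissues did not overlap. Ccr2, a receptor of inflammatory chemokines, had a log2 fold change of 1.03 (edgeR adjusted p = 0.000321). Ccr9 and Ccr2 kept the call without any 1 sample. Ccr8, a receptor for CCL1, was at 15.9, 6.24, 12.5 and 5.59 CPM in mLN and 30.1, 35.3, 62.3 and 50.5 CPM in thymus and did not pass (−2.12, edgeR adjusted p = 0.0281). DESeq2 called it lower (DESeq2 adjusted p = 0.000974). The receptor genes Ccr4 and Cxcr6 had log2 fold changes of 0.96 and 0.48 (edgeR adjusted p = 0.0277 and 0.277) and were not called.

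Of 11 tested genes that sense or process extracellular ATP and NAD, 3 were higher in mLN and none was lower, with a median of 0.82. P2rx7 (ENSMUSG00000029468, chromosome 5 from 122643911 to 122691432 on the plus strand) encodes the ATP-gated channel P2X7, and was at 335, 305, 318 and 335 CPM in mLN and at 16.3, 13.2, 10.2 and 19 CPM in thymus (4.44, SE 0.35, edgeR adjusted p = 2.92e-07). Levels in mLN were far above all thymus levels in both batches. Art2b (ENSMUSG00000030651, chromosome 7 from 101576970 to 101585600 on the minus strand), an ecto-ADP-ribosyltransferase that modifies P2X7 when NAD is present, was at 615, 546, 357 and 330.4 CPM in mLN and 25.5, 47.8, 16.5 and 26 CPM in thymus (4.04, SE 0.31, edgeR adjusted p = 1.8e-07). Art2a-ps, its neighbouring pseudogene and near copy, was at 166, 200.2, 123 and 148 CPM and 10.2, 4.41, 2.75 and 4.55 CPM (4.77, SE 0.31, edgeR adjusted p = 2.45e-08), and RSEM may divide reads between the 2 genes. All 3 kept the call under each of 19 alternatives in which they could be tested. P2rx7 was at 309.7 ± 46.7 CPM (SD, n = 4) in spleen, which was only strained, and at 47.3 ± 34.8 CPM (SD, n = 3) in iLN, which was digested like mLN. Art2b was at 398 ± 104 CPM in spleen and 74.2 ± 31.6 CPM in iLN.

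The AP-1 motif, TGANTCA on either strand, was in the promoters of P2rx7 and Art2b and in 2 others of the 84 genes higher in mLN (4.76%), in 8.43% of genes lower in mLN and in 3.98% of all. The matches begin 249 and 104 bases before the start. They are shown because both genes were higher in mLN and hold the same letters. The start that RefSeq gives for Art2b lies inside the gene bounds given above, so this stretch is within the gene as those bounds define it. The RefSeq starts of P2rx7 and Nkg7 also lie inside the bounds of the gene annotation.
P2rx7, chr5:122643677-122643926, plus strand: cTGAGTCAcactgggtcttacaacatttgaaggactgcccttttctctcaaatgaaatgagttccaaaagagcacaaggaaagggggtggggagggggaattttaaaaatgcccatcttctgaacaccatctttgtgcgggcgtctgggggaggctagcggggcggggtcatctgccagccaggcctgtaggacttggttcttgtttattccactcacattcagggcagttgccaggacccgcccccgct
Art2b, chr7:101581162-101581411, minus strand: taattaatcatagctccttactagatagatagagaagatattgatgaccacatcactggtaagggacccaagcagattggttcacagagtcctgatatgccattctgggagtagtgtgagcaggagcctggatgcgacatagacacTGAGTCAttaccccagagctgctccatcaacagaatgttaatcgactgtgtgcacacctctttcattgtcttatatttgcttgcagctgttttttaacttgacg

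The 4 AP-1 subunit genes Fos, Fosb, Jun and Junb were higher in mLN, and the first 3 of them were near 0 in thymus. AP-1 factors are dimers of Fos and Jun proteins, induced within minutes by TCR signals, stress and tissue handling. Of 19 tested genes on the list of AP-1 and early response 5 were higher and none was lower, with a median of 0.43. Fos (ENSMUSG00000021250, chromosome 12 from 85473890 to 85477273 on the plus strand) was at 9.98, 16.5, 4.99 and 4.62 CPM in mLN and had 2 counts over the 4 thymus samples, both in replicate 1, against 239 in mLN. The ratio was 89.2-fold (95% counting interval 24.4 to 741) after scaling by depth (edgeR adjusted p = 0.0043). Jun was at 9.72, 41.4, 10.2 and 4.05 CPM in mLN, with replicate 2 the highest, and at 0.617, 0, 0.551 and 0.379 CPM in thymus (4.93, SE 0.85, edgeR adjusted p = 0.00178). Fosb was at 24, 18.6, 7.91 and 7.9 CPM in mLN and 0.123, 0, 0.275 and 0.379 CPM in thymus (5.75, SE 1.18, edgeR adjusted p = 0.00767), and Junb at 46.8, 72.7, 56.8 and 42.2 CPM and 13.8, 2.21, 12.4 and 11.8 CPM (2.43, SE 0.46, edgeR adjusted p = 0.00389). In each of these 4 genes the tissues did not overlap. Btg1, an antiproliferative gene, was higher by 0.82 (edgeR adjusted p = 0.00506). Dusp1, a phosphatase of the same early response, had a log2 fold change of 2.2 and was not called (edgeR adjusted p = 0.0129).

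Fosb lost the call without any 1 of the 8 samples (edgeR adjusted p up to 0.0547) and Fos without mLN replicate 2 or 3 or any thymus replicate (up to 0.0275). Jun lost it without thymus replicate 1 (0.0136), Junb without mLN replicate 2 or thymus replicate 2, 3 or 4 (up to 0.0207), and Btg1 without mLN replicate 1, 2 or 3 or thymus replicate 2, 3 or 4 (up to 0.0289). None of the promoters of the 5 called genes held the AP-1 motif in the 250 bases searched. In the strained spleen, Fos and Fosb reached means of 0.222 ± 0.444 and 1.35 ± 2.03 CPM (SD, n = 4), against 11.5 ± 10.2 and 16.6 ± 15.2 CPM (SD, n = 3) in the digested iLN, so that both means were higher in the digested LNs than in the strained tissues. The part of the preparation in these values was not tested. None of 12 heat-shock genes tested was called, where 1.6% of all genes tested were, and their median was 0.13. The list members Hspa1a, Hspa1b and Hspb1 were not tested.

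Of 27 tested genes that TCR signals induce, 3 were higher in mLN and none was lower, with a median of 0.20. DESeq2 called 6 higher and 1 lower, and without a filter on low counts 7 and 1 were called. Nr4a1, the orphan nuclear receptor Nur77, was at 38.9, 11.3, 35.6 and 29.7 CPM in mLN and 2.84, 2.21, 1.65 and 1.52 CPM in thymus (3.75, SE 0.65, edgeR adjusted p = 0.00202). Tnfrsf9, the costimulatory receptor 4-1BB, was at 41.6, 92.7, 90.3 and 91.5 CPM in mLN, where replicate 1 was the lowest, and 17.6, 16.9, 12.4 and 18.4 CPM in thymus (2.26, SE 0.33, edgeR adjusted p = 0.000367). The third was Il2ra. Egr1, Egr2 and Egr3, zinc finger factors induced by the same signals, were not called, with log2 fold changes of 0.22, −0.02 and −0.05 and edgeR adjusted p-values of 0.729, 0.993 and 0.985. Egr1 was at 106, 56.4, 118 and 113 CPM in mLN and 90.3, 77.2, 80.7 and 84 CPM in thymus, and Nr4a3 at 32.9, 15.2, 28.1 and 40.5 CPM and 15.4, 1.47, 1.93 and 3.23 CPM (2.28, edgeR adjusted p = 0.0565). Tnfrsf9 kept the call without any 1 sample, and Nr4a1 lost it without thymus replicate 3 or 4 (edgeR adjusted p up to 0.0158). On the list of NF-κB subunits and inhibitors none of 15 was called, 14 had a positive value and the median was 0.49. Of all genes tested 1.6% were called, so a list of this size can hold none. DESeq2 called 1 member higher, and 1 was called higher without a filter on low counts. Nfkbia, the feedback inhibitor IκBα, was at 31.4, 28.9, 25 and 18.7 CPM in mLN and 6.66, 9.56, 12.1 and 14 CPM in thymus with no overlap (1.36, edgeR adjusted p = 0.0242, DESeq2 adjusted p = 0.00187).

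**Figure D5:**
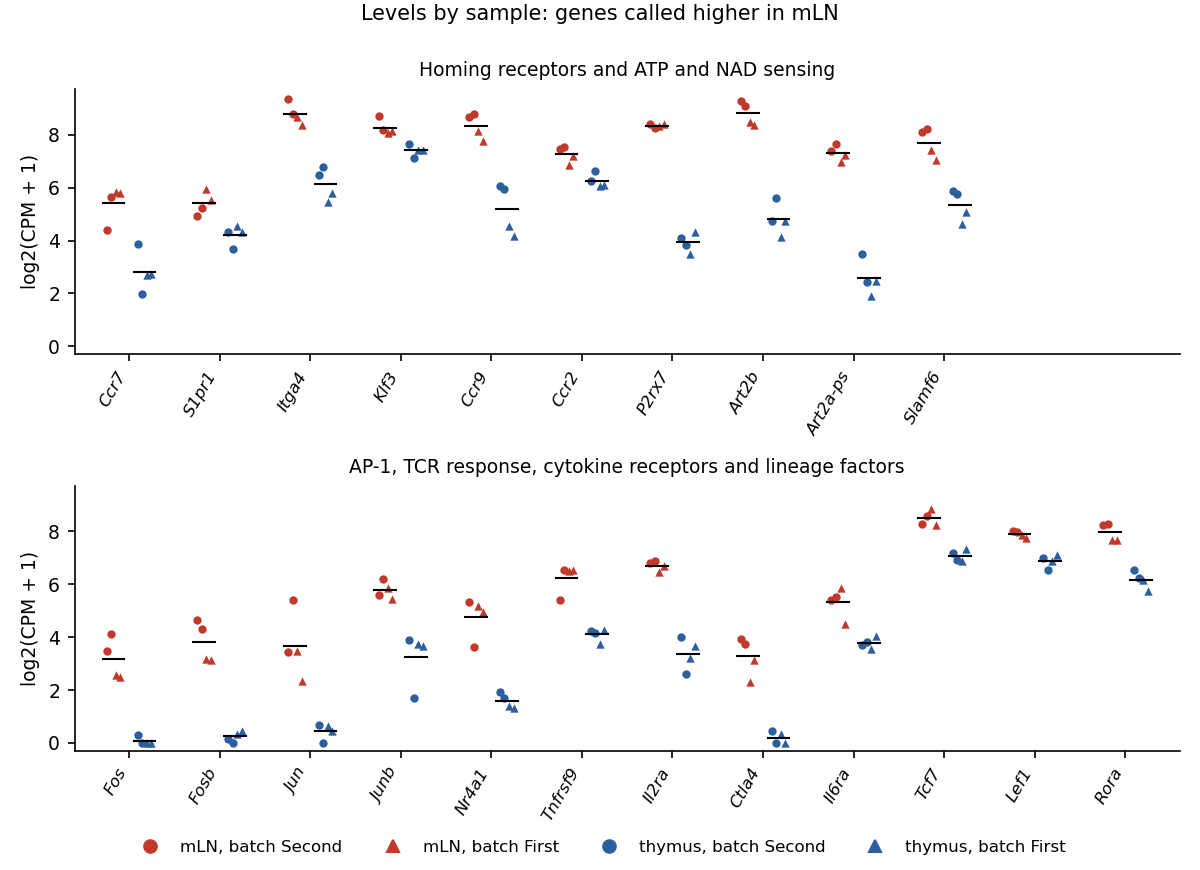
Points are single samples as log2(CPM + 1), mLN in red and thymus in blue, circles for the batch labelled Second and triangles for First, with lines at the mean of the 4 log2 values. All 22 genes are called higher in mLN, and Fos, Fosb, Jun and Ctla4 are near 0 in every thymus sample.

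Costimulatory and proximal TCR signalling genes were higher in a few members. Of 19 tested costimulation and checkpoint genes 5 were higher in mLN and none was lower (median 0.22). Ctla4, an inhibitory receptor for CD80 and CD86, was at 14.3, 12.5, 3.95 and 7.71 CPM in mLN and 0.37, 0, 0.275 and 0 CPM in thymus (5.43, SE 1.03, edgeR adjusted p = 0.0042). Cd96 and Cd226, which bind the same family of nectin ligands, were higher by 1.02 and 0.90 (edgeR adjusted p = 0.000159 and 0.00273). Tnfrsf25, the death receptor DR3, was higher by 2.54 (edgeR adjusted p = 0.00324). Cd28 was at 718 ± 175 CPM in mLN and 516 ± 162 CPM in thymus and was not called (0.50, edgeR adjusted p = 0.0663).

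Of 22 genes of proximal TCR signalling 2 were higher (median 0.28). Themis, which tunes TCR signals during selection, was at 193, 246, 172 and 191 CPM in mLN and 16.8, 28.7, 13.5 and 17.3 CPM in thymus (3.45, SE 0.26, edgeR adjusted p = 1.79e-07), and Rasgrp1, an activator of Ras, was higher by 0.74 (edgeR adjusted p = 0.00389). Of 21 genes that restrain TCR signalling 1 was lower in mLN (median −0.21), the phosphatase SHP-1 gene Ptpn6, at 53, 52.4, 111 and 102 CPM against 129, 201, 244 and 272 CPM in thymus (−1.44, SE 0.22, edgeR adjusted p = 0.000551). Themis, Cd96 and Ptpn6 kept the call without any 1 sample. Ctla4 lost it without mLN replicate 4 or any thymus replicate (edgeR adjusted p up to 0.022), Cd226 without mLN replicate 1 or 3 or thymus replicate 1, 3 or 4 (up to 0.0191), Tnfrsf25 without thymus replicate 1, 2 or 3 (up to 0.0191), and Rasgrp1 without mLN replicate 2, 3 or 4 or thymus replicate 1 or 3 (up to 0.0263).

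The programs of the iNKT subsets differed in direction. Of 15 NKT1 genes 5 were lower in mLN and 1, Ccl5, was higher (median −0.69). The 5 were Klrd1, Klrk1, Klrb1c, Nkg7 and Il12rb2, while Tbx21, which encodes T-bet, was at 29.4, 16.7, 57.8 and 71.1 CPM in mLN and 30.4, 59.5, 78.5 and 98.7 CPM in thymus, overlapping, and was not called (−0.68, edgeR adjusted p = 0.284). Of 14 NKT2 genes 4 were higher and none was lower (median 0.72). They were Il17rb, Il6ra, Lef1 and Slamf6, a SLAM receptor of iNKT selection at 276, 295, 171 and 129.8 CPM in mLN and 58, 53.7, 24 and 32.8 CPM in thymus (2.37, SE 0.24, edgeR adjusted p = 9.05e-06). Zbtb16 was at 199, 187, 228 and 179 CPM in mLN and 113, 126, 117 and 129 CPM in thymus with no overlap, and did not pass (0.71, edgeR adjusted p = 0.0544). Of 15 NKT17 genes tested 2 were higher and none was lower (median 1.51). Rora, the nuclear receptor RORα, was at 301, 310.2, 201 and 204 CPM in mLN and 91.7, 73.5, 69.97 and 52 CPM in thymus (1.81, SE 0.18, edgeR adjusted p = 4.59e-06), and Sdc1, the syndecan CD138, at 8.95, 16.4, 13.7 and 8.48 CPM and 0.74, 0, 4.96 and 1.33 CPM (2.89, SE 0.55, edgeR adjusted p = 0.00422). Il23r, the IL-23 receptor chain of NKT17 cells, was at 0.908, 9.87, 8.95 and 17.7 CPM in mLN and 6.54, 3.68, 0.275 and 1.9 CPM in thymus, overlapping, and was not called (1.66, edgeR adjusted p = 0.401).

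Among 31 lineage and memory factors 5 were higher in mLN and none was lower (median 0.20). DESeq2 called 7 higher and 1 lower. Tcf7, which encodes TCF-1, a factor of naive and memory T cells, was at 305, 384, 456 and 303 CPM in mLN and 144, 119, 117 and 159 CPM in thymus (1.42, SE 0.18, edgeR adjusted p = 7.04e-05). Its relative Lef1 was at 255, 253, 234 and 216 CPM in mLN and 125, 91.9, 117 and 138 CPM in thymus (1.01, SE 0.17, edgeR adjusted p = 0.00157). Runx1 was at 252 ± 71 CPM in mLN and 113 ± 17.4 CPM in thymus (1.13, edgeR adjusted p = 7.32e-05), whereas Runx3, the Runx factor of cytotoxic cells, had −1.02 and was not called (edgeR adjusted p = 0.0129). The others were Rora and Foxo1. Tcf7, Lef1, Runx1, Rora and Slamf6 kept the call without any 1 sample, and Sdc1 lost it without mLN replicate 2 or 3 or thymus replicate 1, 2 or 4 (edgeR adjusted p up to 0.0348).

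Survival genes included changes in both directions. Of the 8 GIMAP GTPases, which sustain lymphocyte survival, 2 were higher in mLN (median 0.45). Gimap7 was at 81, 104, 102 and 109.6 CPM in mLN and 5.8, 9.56, 22 and 22.2 CPM in thymus (2.87, SE 0.30, edgeR adjusted p = 9.05e-06), and Gimap6 was higher by 0.76 (edgeR adjusted p = 0.00285). Of 13 members of the BCL2 family tested 1 was lower (median 0.13), Bcl2 itself, at 164, 309, 155 and 195 CPM in mLN and 479.8, 363, 317 and 345 CPM in thymus (−0.88, SE 0.18, edgeR adjusted p = 0.00886). Gimap7 kept the call without any 1 sample. Gimap6 lost it without mLN replicate 2 or 4 or thymus replicate 1 or 3 (edgeR adjusted p up to 0.0191), and Bcl2 without any 1 sample but mLN replicate 2 (up to 0.0506).

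No member was called among 28 interferon-stimulated genes, 27 cell cycle genes and 20 glycolysis genes tested, whose medians were −0.43, −0.11 and −0.10. Of all genes tested 1.6% were called, so lists of this size can hold none. The tissues did not overlap in 8, 0 and 3 of these genes, against 8.05% of all genes tested. Of the interferon-stimulated genes 21 had a negative value. DESeq2 called 2 interferon-stimulated genes and 1 glycolysis gene lower, and no cell cycle gene. Ifit3 and Irf7, induced by type I interferon, had log2 fold changes of −2.30 and −1.55 (edgeR adjusted p = 0.0418 and 0.0135). Mki67, the proliferation marker Ki-67, was at 23.9, 30.3, 20.2 and 35.4 CPM in mLN and 120.2, 63.2, 22 and 37.4 CPM in thymus, with thymus replicate 1 the highest (−0.90, edgeR adjusted p = 0.504).

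Markers of other cells were read because a sorted sample can hold some of them. Of 12 tested genes of immature thymocytes 1 was lower in mLN and 2, Cd4 and Themis, which mature T cells also express, were higher (median 0.16). Rag1, the recombinase of immature lymphocytes, had 0 counts in all 4 mLN samples and was at 19.3, 22.1, 5.51 and 5.88 CPM in thymus, at least 108-fold higher when set against a floor of 3 counts over the mLN samples (edgeR adjusted p = 0.000628). The summed level of this list was between 1318 and 1791 CPM in mLN and between 1070.1 and 1282 CPM in thymus. Cd4 was at 279 ± 128 CPM in mLN and 125 ± 66.3 CPM in thymus, overlapping (1.22, edgeR adjusted p = 0.00893), and lost the call without mLN replicate 1, 3 or 4 or thymus replicate 2, 3 or 4 (edgeR adjusted p up to 0.0534).

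On the list of regulatory T cells 3 of 10 genes were higher in mLN, Il2ra, Ctla4 and Nrp1, and 1 was lower, Capg, an actin-capping protein (−3.38, edgeR adjusted p = 2.03e-05), with a median of 2.46. Nrp1, the semaphorin receptor neuropilin 1, was at 60.4, 79.7, 113 and 55.9 CPM in mLN and 26, 39, 20.1 and 17.1 CPM in thymus (1.67, SE 0.31, edgeR adjusted p = 0.00355), and lost the call without mLN replicate 3 or thymus replicate 1, 3 or 4 (edgeR adjusted p up to 0.0255). Foxp3, the defining factor of regulatory T cells, was at 0, 34, 4.16 and 4.24 CPM in mLN and 0.617, 0, 0.551 and 1.14 CPM in thymus and was not called (3.94, edgeR adjusted p = 0.104). DESeq2 gave Foxp3 a log2 fold change of 4.08 (DESeq2 adjusted p = 0.00657). Exons of Flicr on the same strand cover 18.6% of the exonic bases of Foxp3, and those of Ccdc22 on the opposite strand 12.9%. The counts of Foxp3 are therefore uncertain. Ctla4 was at 14.3 CPM and Il2ra at 109.6 CPM in mLN replicate 1, where Foxp3 was at 0. A value of 0 in 1 library does not show that regulatory T cells were absent, and their part in Ctla4 and Il2ra was not tested. The list made up between 562 and 823 CPM in mLN and between 465 and 584 CPM in thymus.

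B cell and MHC class II genes had no called member of 13 (median 0.70), and their summed level was between 195 and 349 CPM in mLN and between 116 and 211 CPM in thymus. H2-Aa and Cd74, MHC class II genes, were at 24.5 and 33 CPM in mLN and 0.452 and 1.93 CPM in thymus (edgeR adjusted p = 0.0235 and 0.0494). DESeq2 called 2 members of this list higher in mLN, and without a filter on low counts 5 were called higher. For H2-Aa and Cd74 the DESeq2 adjusted p was 0.00724 and 0.00549. Of 5 tested myeloid genes none was called (median 0.01), and Lyz2, the lysozyme of macrophages, was at 9.99 CPM in mLN and 0.326 CPM in thymus (edgeR adjusted p = 0.0155). DESeq2 called 1 myeloid gene higher and gave Lyz2 an adjusted p of 4.6e-05. The myeloid list summed to between 20.2 and 33.8 CPM in mLN and between 12.9 and 23.4 CPM in thymus. None of 6 γδ T cell genes (480.0 to 1012 CPM in mLN and 476 to 1099 CPM in thymus in sum, median −0.22) and none of 3 tested genes of stroma, endothelium and epithelium (76.1 to 108 CPM and 34.5 to 63.6 CPM, median 0.38) was called, where Pecam1, which T cells can also express, had 1.08 (edgeR adjusted p = 0.0235) and 9 of 17 entries, among them Foxn1, Krt5, Madcam1, Lyve1 and Pdpn, had 0 counts in all 8 samples. The red cell gene Hbb-bs had 0 counts in mLN and was at 9.63, 5.15, 7.71 and 0 CPM in thymus, at least 46.1-fold higher against the same floor (edgeR adjusted p = 0.00583), with no counts in thymus replicate 4. Of 5 red cell genes tested it was the 1 called, the median was −4.32, or −3.76 with genes at 0 set to their bound, and the list summed to between 0.624 and 2.31 CPM in mLN and between 1.71 and 15.2 CPM in thymus. Hbb-bs lost the call without any 1 sample but thymus replicate 4 (edgeR adjusted p up to 0.0253). DESeq2 called 1 gene of stroma, endothelium and epithelium higher, 2 red cell genes lower and no γδ T cell gene. Of all genes tested 1.6% were called, so lists of this size can hold none. The part of these other cell types in the other results was not tested.

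As a share of counts, the myeloid list and the γδ list gave p = 0.143 and p = 0.771 in two-sided exact permutation tests of 4 against 4 samples. The lists of immature thymocytes, of B cells and MHC class II, of regulatory T cells and of red cells each gave p = 0.0571 in the same exact permutation test. Stroma, endothelium and epithelium made up 0.00915% ± 0.00178 of the counts in mLN and 0.00461% ± 0.00178 in thymus (SD, n = 4), with an exact permutation p of 0.0286, the smallest that 4 against 4 samples allow. None of the 10 shares tested had an adjusted exact p below 0.114. Mitochondrial rRNA made up 19.0% of the counts in mLN and 17.4% in thymus (exact permutation test, p = 0.543), mitochondrial protein genes 1.98% and 1.42% (p = 0.343, exact permutation test), and genes on rRNA repeats 9.72% and 16.1% (p = 0.4, exact permutation test).

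The 12 genes with the largest change in each direction, among called genes without overlap and with a mean of at least 5 CPM in the higher tissue, included several that were on no list. Atp6v0d2, a subunit of the vacuolar proton pump, was at 49.7, 48.8, 40.6 and 27.5 CPM in mLN and 0, 0, 0.551 and 0.379 CPM in thymus (7.45, SE 0.95, edgeR adjusted p = 7.7e-05). Tmem273, a transmembrane protein, was at 44.3, 61.5, 48.9 and 56.4 CPM and 0.123, 0, 1.38 and 0.379 CPM (6.81, SE 0.74, edgeR adjusted p = 1.6e-05), and the unnamed gene Gm4956 at 34.8, 60.1, 14.1 and 36.8 CPM and 0.494, 0, 0 and 0 CPM (7.33, SE 0.78, edgeR adjusted p = 1.2e-05). Each was almost absent from thymus and present in every mLN sample. Irak3, an inhibitor of Toll-like receptor signalling, was at 16.1 CPM in mLN and 0.507 CPM in thymus (5.38, edgeR adjusted p = 7.32e-05), and Gucy1a1, a subunit of soluble guanylate cyclase, at 14.1 CPM and 0.154 CPM (5.88, edgeR adjusted p = 0.00351).

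In the other direction Styk1 (ENSMUSG00000032899, chromosome 6 from 131299142 to 131353597 on the minus strand), a receptor-like kinase of NK cells, was at 0.778, 0.58, 0.208 and 0.385 CPM in mLN and 139, 175, 111 and 133 CPM in thymus (−8.01, SE 0.48, edgeR adjusted p = 1.77e-08). Tgfa, an EGF receptor ligand, had 3 counts in mLN and 326 in thymus, a ratio of 146-fold (95% counting interval 49.4 to 709.6) after scaling by depth. Apol9b, an apolipoprotein L, had 2 counts and 147, a ratio of 98.5-fold (95% counting interval 26.8 to 821). Dmrta1, a DM domain factor, had 2 counts and 187, a ratio of 125-fold (95% counting interval 34.2 to 1042). Kcnj8, a potassium channel subunit, and Gas7, an actin-binding protein, had log2 fold changes of −6.53 and −6.13 (edgeR adjusted p = 0.000245 and 0.000157). Of these genes Atp6v0d2, Tmem273, Gm4956, Irak3, Styk1, Tgfa, Kcnj8 and Gas7 kept the call without any 1 sample. Gucy1a1 lost it without mLN replicate 3 or thymus replicate 2, 3 or 4 (edgeR adjusted p up to 0.0206), Apol9b without any 1 sample but thymus replicate 1 (up to 0.0134) and Dmrta1 without any 1 sample but mLN replicate 4 (up to 0.0229).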

How the data were processed

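iNKT cell RNA was amplified with the NuGEN Ovation Ultralow kit and sequenced. Per the labels, the authors trimmed reads with cutadapt 1.7.1 and estimated expected counts per gene with RSEM 1.2.31 and Bowtie2 2.2.9 on GRCm38. The deposited expected counts were used for all tests, rounded to whole numbers. The deposited TPM, scaled by the authors for gene length, served as an alternative for shares, and the deposited FPKM was not used. The strand setting of the counting is not given in the sources used here. Amplified reads without molecular identifiers are not independent molecules, so counting intervals and floors cover counting error only.

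Genes were kept by filterByExpr of edgeR 4.0.16 (R 4.3.3) and normalized by TMM. The quasi-likelihood test was fitted on all 15 samples, tissue and batch being the factors, since spleen and iLN add to the estimate of the spread. Called genes had a Benjamini-Hochberg adjusted p under 0.01 and a fold change over 1.5. Named genes were members of the lists and the 12 largest changes in each direction without overlap and with at least 5 CPM in the higher tissue. Some members are not reported here. The members and lists were chosen with earlier results of these data known. The procedure was tested on simulated data. Alternatives were DESeq2 1.42.0, RLE normalization, other filters, other terms and samples, thinning, and leaving out each sample. For shares of counts, exact permutation tests were run two-sided (scipy 1.17.1). A gene with 0 counts in a tissue was set against 3 counts over its samples, and one with 1 to 3 counts is given as a ratio with a 95% interval. Promoters were from RefSeq (GRCm38.p6), matched by symbol. Of the named genes, 10 share at least 10% of their exonic bases with another gene that has counts, among them Il12rb2 with Serbp1, Cd72 with Tesk1, Xcl1 with Gm20743, Klrb1c with Gm44511 and Lef1 with Gm43352.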

Additional observations from a re-analysis of the deposited data

Results flagged for a closer look

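Among the values of the named genes and shares, 31 of 308 sets of 4 samples had 1 sample far from the other 3, by its gap to the nearest of them relative to the whole range. Chance flags about 1 in 20 groups only where the values are normally distributed. A set with counts in 1 sample only is always flagged by this rule, as for Fos in thymus and Tjp1 in mLN. The 31 of 308 can therefore not be set against that rate, and whether they exceed chance was not tested.

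Replicate 1 of mLN was the highest for Ifng at 34.2 CPM (8.42 to 8.86 in the others), Gzmb at 16.5 CPM (0.416 to 3.08), Klrc1 at 18.0 CPM (6.74 to 8.56), Klrc3, a NKG2 family member, at 0.908 CPM (0 in the others), Cd226 at 187 CPM, Klf3 at 413 CPM and the MHC class II gene Cd74 at 96.5 CPM (5.22 to 19.6), and the lowest for Tnfrsf9 at 41.6 CPM (90.3 to 92.7). Its single count of Klra13-ps gave 0.13 CPM.

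In the other mLN samples, replicate 2 was the highest for Foxp3 at 34 CPM (0 to 4.24 in the others) and for Jun at 41.4 CPM (4.05 to 10.2), and Tjp1 and Klra8 were each at 0.145 CPM there and at 0 in the others. Replicate 3 was the lowest for Klf2 at 3.12 CPM and was the 1 sample with Klra5, at 0.832 CPM. Replicate 4 was the lowest for the intermediate filament gene Vim at 7.13 CPM (12.2 to 12.5), the highest for Capg at 22.2 CPM (6.61 to 8.95) and Klra7 at 3.08 CPM, and the 1 sample with Dmrta1 at 0.385 CPM and Klra6 at 0.193 CPM.

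Replicate 1 of thymus was the highest for Gzmb at 390.1 CPM (259 to 278), Egr2 at 89.8 CPM (33.1 to 41.9), Nr4a3 at 15.4 CPM (1.47 to 3.23) and Dmrta1 at 15.1 CPM, and the lowest for the calcium-binding protein gene S100a6 at 50.1 CPM (66.4 to 68.4). It was also the 1 thymus sample with counts of Fos (0.247 CPM), Gm4956 (0.494 CPM) and Gucy1a1 (0.617 CPM), and had the highest share of B cell and MHC class II genes, 0.0209% of counts (0.0129% to 0.0137%). Gas7 was the highest in thymus replicate 2, the shallowest sample, at 29.4 CPM (11 to 13.5), and the zinc finger factor gene Ikzf4 in thymus replicate 4 at 2.66 CPM (0.617 to 0.826).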

How the results depend on the processing

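The direction of all 108 called genes named in the text held under every alternative in which they were tested, and 20 kept the call under every one. The number of called genes (217, with 111 higher and 106 lower in mLN) was 414 (202 and 212) with DESeq2, which included all 217, and 435 (225 and 210) without a filter on low counts. It fell to 55 (25 and 30) in the batch labelled First alone, to 31 (18 and 13) in the batch labelled Second alone, and to 77 (35 and 42) after thinning all samples to the smallest library, so depth limits the calls. Leaving out 1 sample at a time gave 125 to 180 called genes, 55 to 88 higher and 68 to 92 lower. The number moved by over 1.5 times without mLN replicate 3 (144) and without thymus replicates 1 (134), 2 (141), 3 (125) and 4 (136). Without the batch term it was 156, and 21 named genes lost the call. With the mLN and thymus samples alone in the fit it was 179, of which 159 were among the 217, and 14 named genes lost the call.

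Samples of the same number in the 2 tissues deviated together no more (mean r 0.137, 0.0805 to 0.203) than samples of the same batch with another number (mean 0.132), and since not every pair was above 0.1 the numbers were not taken as pairs. With the replicate block in place of the batch, 204 genes were called, 102 in each direction, 189 of them among the 217.

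Of the genes not called, Egr2 turned positive with the block (0.020), in the batch labelled First (0.70), after thinning (0.60) and without some single samples (range −0.29 to 0.37), and Egr3 without the batch term (0.13), in First (0.53), after thinning (0.50) and without some single samples (range −0.24 to 0.17). Egr1 was negative in the batch labelled Second (−0.041). The share of γδ T cell genes turned from lower to higher in mLN without mLN replicate 3, thymus replicate 1 or thymus replicate 2, with a range of −0.017 to 0.00676 percentage points over all single samples left out. From deposited TPM, the difference in share passed an unadjusted exact permutation p of 0.05 for immature thymocytes (0.0323 points) and myeloid cells (0.000881 points), and no longer for stroma, endothelium and epithelium (0.00164 points). The regulatory T cell share passed it with mitochondrial rRNA left out of the total (0.0273 points). Stroma did not pass it without any 1 sample (0.00389 to 0.00512 points), where 3 against 4 samples reach no p below 0.0571. The causes were not tested.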

Other observations

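On no list were 142 of the 217 called genes, 69 higher and 73 lower in mLN. Those named here were chosen after their values were seen. Vim, the intermediate filament vimentin, was at 12.3, 12.2, 12.5 and 7.13 CPM in mLN and 192, 119, 157 and 156 CPM in thymus (−3.81, SE 0.31, edgeR adjusted p = 2.92e-07). Ahnak, a large scaffold protein under the membrane, was at 1045, 874, 877 and 926 CPM and 2069, 2316, 1797 and 2259 CPM (−1.18, SE 0.13, edgeR adjusted p = 1.95e-05). S100a6, Anxa2 and Lgals3, which encode a calcium-binding protein, annexin A2 and galectin 3, had log2 fold changes of −3.05, −3.35 and −5.00 (edgeR adjusted p = 2.03e-05, 0.000118 and 0.00114). Ly6c2, a surface marker of memory T cells, was at 16.7, 13.8, 54.9 and 54.9 CPM in mLN and 145, 149.9, 259 and 244 CPM in thymus (−2.65, SE 0.27, edgeR adjusted p = 9.05e-06), and no mLN sample overlapped thymus in any of these 6 genes. Cd7, an immunoglobulin family receptor, and Itm2a, a membrane protein induced in thymic selection, had log2 fold changes of −3.64 and −2.92 (edgeR adjusted p = 0.000984 and 0.0013). The kinase gene Sgk1, the glucosylceramide synthase gene Ugcg and Tlr7, a sensor of single-stranded RNA, had −3.32, −1.08 and −2.41 (edgeR adjusted p = 0.000417, 0.000159 and 0.00586).

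Among the genes higher in mLN, Dtx1 and Dtx4, which encode Deltex E3 ligases, had log2 fold changes of 2.25 and 3.35 (edgeR adjusted p = 0.000245 and 1.24e-06). Dtx4 was at 82.2, 88.8, 104 and 82.3 CPM in mLN and 6.42, 4.41, 10.2 and 14.4 CPM in thymus, without overlap. Emb, the adhesion protein embigin, was at 122, 124, 120.3 and 130.2 CPM in mLN and 16.7, 27.2, 23.4 and 10.4 CPM in thymus (2.74, SE 0.30, edgeR adjusted p = 1.73e-05). Epas1, which encodes HIF-2α, was at 62.1, 84.7, 103 and 43.5 CPM and 14.1, 15.4, 12.4 and 17.8 CPM (2.30, SE 0.29, edgeR adjusted p = 7.46e-05). Ptger2, a receptor for prostaglandin E2, and Igf1r, the receptor for IGF-1, had 3.65 and 2.36 (edgeR adjusted p = 0.000435 and 0.00118). Dpp4, the surface protease CD26, was at 102, 108, 109 and 92.9 CPM in mLN and 57.4, 39, 30.02 and 30.4 CPM in thymus (1.41, SE 0.22, edgeR adjusted p = 0.000601). The integrin chain gene Itgb3 and the transcription factor gene Ikzf4 had 1.05 and 4.05 (edgeR adjusted p = 0.00351 and 0.00843). Lysosomal proteases went both ways, with Ctsb (cathepsin B) at 0.96 and Ctsd (cathepsin D) at −0.87 (edgeR adjusted p = 0.000902 and 0.00574). Exons of Fdft1 on the opposite strand cover 12.8% of the exonic bases of Ctsb, and reads there cannot be told apart without strand. Exons of Gm49369 on the same strand cover 34.4% of those of Ctsd, where strand would not separate the reads. Without 1 sample at a time, Vim, Ahnak, S100a6, Anxa2, Lgals3, Ly6c2, Cd7, Itm2a, Sgk1, Ugcg, Dtx1, Dtx4, Emb, Epas1, Ptger2, Dpp4 and Ctsb kept the call. Tlr7 lost it without any 1 sample but mLN replicate 4 (edgeR adjusted p up to 0.0331), Igf1r without thymus replicate 1 (up to 0.0109), Itgb3 without mLN replicate 2 or 3 or any thymus replicate (up to 0.0198), Ikzf4 without any 1 sample but mLN replicate 4 (up to 0.0526) and Ctsd without any 1 sample but mLN replicate 2 (up to 0.031).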
